A study of Danio rerio with 8 samples.

Results

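The 3 fasciclin-domain matrix genes tgfbi, postna and postnb were followed in sorted pdgfrb-reporter cells of larval zebrafish, with and without a lesion of the spinal cord. They were chosen by name, not by their values, and were found by zebrafish symbol in a table of 31901 genes. All 3 passed the filter on low counts and are among the 15759 genes tested. Each of the 8 libraries came from larvae at 4 days after fertilization that carried BAC(pdgfrb:Gal4ff)ncv24;UAS:GFP. The cells were released with trypsin, and those with GFP were sorted. In the lesioned group (n = 4) the cord had been cut mechanically 1 day before collection, and the unlesioned group (n = 4) carried the same transgene without a cut. GFP in this line depends on the pdgfrb promoter driving Gal4ff, and the labels name the sorted cells as myoseptal and perivascular. They give neither the number of larvae behind a library nor its clutch, so the p-values measure the spread between libraries, which may be technical.

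Fasciclin domains are protein folds found in secreted and surface proteins that attach cells to matrix. The gene tgfbi encodes TGF-beta-induced protein, which binds collagens and integrins, and is named for its induction by TGF-beta in human cells. Periostin, encoded in zebrafish by the gene pair postna and postnb, is a matricellular protein that in mammals binds fibronectin, tenascin C and collagen I, promotes collagen cross-linking and is known from wounds and fibrotic scars. Both proteins also signal to cells through integrins.

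On GRCz11 chromosome 14, tgfbi (ENSDARG00000071586) occupies bases 26511041 to 26536504 of the minus strand, beside smad5, a signal transducer of the BMP pathway. On chromosome 10, postna (ENSDARG00000043806) occupies bases 25762196 to 25817854, also of the minus strand. On chromosome 15, postnb (ENSDARG00000104267) occupies bases 32710094 to 32741733 of the plus strand. The second gene along from postna is trpc4a and the second from postnb is trpc4b, paralogs that encode a cation channel. The merged exons of tgfbi, postna and postnb number 17, 27 and 23 and span 3037, 3994 and 5848 bases. Exon bases shared with another annotated gene numbered 0 for each of the 3, so the counting without regard to strand mixed no annotated partner into them. How many reads match both periostin genes was not analysed here.

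Total counts lay between 19552807 and 25358885 per library. All 11 of 11 fibroblast markers were measured, with a summed level of 9010.2 to 18699 CPM (counts scaled to the library total and its TMM factor) in the unlesioned and 13593 to 21044 CPM in the lesioned libraries. The reporter gene pdgfrb had 213 ± 27.4 and 195 ± 68.5 CPM (SD, n = 4 each). Mural cell markers, of smooth muscle and pericytes, were measured for 10 of 10 genes. Macrophage markers summed to at most 44.1 CPM, endothelial markers to at most 106 CPM and osteoblast markers to at most 46.6 CPM, with runx2a and bglap at 0 counts in all 8 libraries. Neutrophil markers reached 197 CPM, neuron and glia markers 242 CPM, notochord markers 875 CPM and chondrocyte markers 1720 CPM. The epidermis markers summed to between 163 and 4887 CPM over the 8 libraries, the muscle markers to between 182 and 4063 CPM and the fin mesenchyme markers to between 1018 and 14336 CPM. The most abundant marker per length of each of these lists, in this order, was coro1a, fli1, spp1, mmp9, tubb5, ntd5, matn4, krt4, actc1b and and2. Single genes held much of some of the highest sums: matn4 1538 of 1720 CPM, mmp9 114 of 197 CPM and ntd5 457 of 875 CPM. The sums therefore do not measure how many cells of a type were present. The sums cover 8 of 10 macrophage, 4 of 5 neutrophil and 8 of 10 muscle markers, the others not being found by symbol.

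The 3 genes lay at very different levels. Per exon length, tgfbi had 1769 ± 1090.3 RPKM (CPM per 1000 exon bases) in the unlesioned group, postnb 706 ± 137 RPKM and postna 11.6 ± 5.34 RPKM (SD, n = 4 each). In the lesioned group these levels were 813 ± 203, 539 ± 173 and 1.5 ± 1.16 RPKM. Among the 15759 genes tested, tgfbi ranked between 18 and 147 per length over the 8 libraries and postnb between 87 and 201. The rank of postna lay between 3075 and 13456. The order tgfbi, postnb, postna held in 7 of 8 libraries. In unlesioned 4 alone postnb stood above tgfbi, at 593 against 488 RPKM. The SDs of tgfbi and postnb around their means overlapped in both groups, whereas postna stood apart from both in every library.

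**Figure D1:**
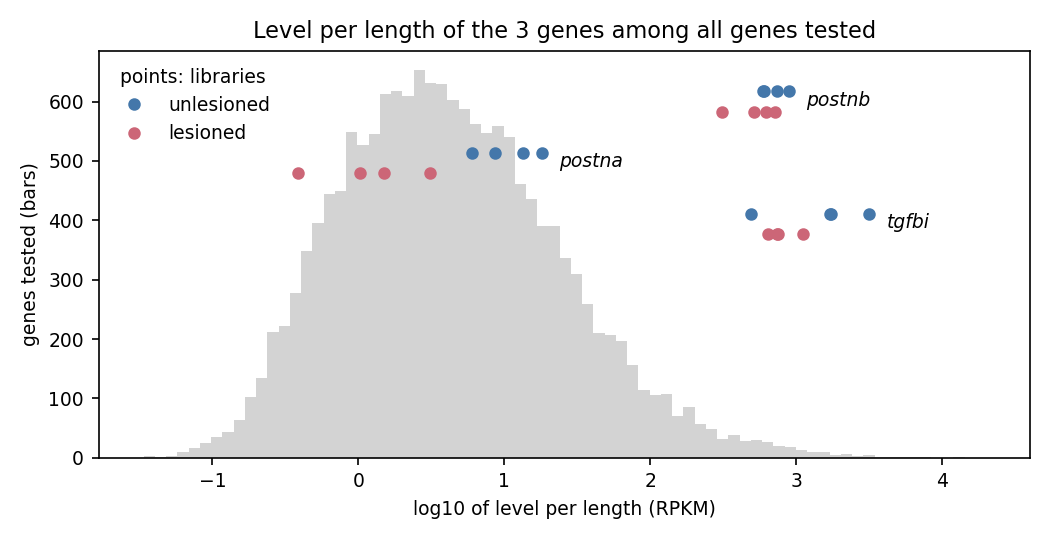
Level per length of the 3 genes among all genes tested. Grey bars count genes by the log10 of their mean RPKM over 8 libraries, and each point is 1 library (blue unlesioned, red lesioned, height arbitrary); tgfbi and postnb lie at the upper end of the distribution, and the lesioned points of postna, from 0.385 to 3.09 RPKM, all lie left of its unlesioned points.

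Lesioned was compared with unlesioned in 1 fit over all genes, which asks how the transcriptome of the reporter cells differs 1 day after injury. In edgeR, 3 of 15759 genes (0.019%) were called higher and 0 lower at an adjusted p under 0.05, and no fasciclin-domain gene was among them. At an unadjusted p under 0.05, 864 genes (5.48%) were lower and 957 (6.07%) higher, and 2 of the 3 genes, tgfbi and postna, were among the lower ones. With the replicate block 1122 genes (7.12%) were lower and 1153 (7.32%) higher at that p, and all 3 genes were among the lower ones. In limma voom the counts were 3 (0.019%) and 0. A replicate block in edgeR left 2 higher (0.0127%) and 0 lower. By DESeq2, 275 genes (1.75%) were higher and 242 (1.54%) lower. The libraries are bulk samples, so fewer cells that make a transcript and less transcript per cell cannot be told apart in any of the values that follow.

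The abundant periostin gene, postnb, had 3547, 5182, 4326 and 3469.9 CPM in unlesioned 1 to 4. In lesioned 1 to 4 it had 3000.4, 3615, 4181 and 1816 CPM. The groups overlapped, lesioned 4 being the lowest library and unlesioned 2 the highest. The mean went from 4131 ± 800.4 to 3153 ± 1014 CPM (SD, n = 4 each), which was 76.3% of the unlesioned level. For postnb edgeR gave a log2 fold change of -0.39 with an SE of 0.28 and an adjusted p of 0.670 (unadjusted 0.187). Taken by replicate number, postnb was lower in the lesioned library at each number, by -0.24, -0.52, -0.05 and -0.93 on the log2 scale. The rule given under the processing does not settle this pairing within libraries 1 and 2. The blocked fit gave a log2 fold change of -0.44 ± 0.17, with an unadjusted p of 0.0344 and an adjusted p of 0.299 in edgeR. Without lesioned 4 the log2 fold change was -0.20.

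The scarce periostin gene, postna, had 54.0, 72.1, 34.7 and 23.8 CPM in unlesioned 1 to 4, from 1185, 1377, 720 and 507 counts. In lesioned 1 to 4 it had 5.96, 12.3, 1.54 and 4.06 CPM, from 140, 301, 34 and 94 counts. All 4 lesioned libraries lay below all unlesioned ones, as was so for 3.91% of the genes tested in that direction. Lesioned 3 was the lowest of the 8. The mean went from 46.2 ± 21.3 to 5.98 ± 4.62 CPM, 7.72 times lower in the lesioned group. The log2 fold change was -2.95 ± 0.61 (SE), with an adjusted p of 0.153 in edgeR, so the gene did not pass over all genes.

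The call of postna depended on the fit. DESeq2 gave an adjusted p of 0.00016 with a log2 fold change of -2.96 ± 0.59. In edgeR with a term for libraries 1 and 2 against 3 and 4 the adjusted p was 0.0475, in a fit that called 7 genes higher and 7 lower (0.0444% each). That split was seen in the data and is not a labelled batch. With the replicate block the adjusted p was 0.101 and in limma voom 0.144. Taken by replicate number, postna was lower by -3.18, -2.55, -4.50 and -2.55 on the log2 scale. The direction was the same in the 18 alternative settings, with log2 fold changes from -3.57 without lesioned 2 to -2.63 without lesioned 3.

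The TGF-beta-induced gene tgfbi had 5172, 5249.7, 9580.5 and 1483 CPM in unlesioned 1 to 4. In lesioned 1 to 4 it had 1959, 2290.4, 3367 and 2257 CPM. The groups overlapped through a single library: unlesioned 4 was the lowest of all 8, while the other unlesioned libraries lay above every lesioned one. The mean went from 5371 ± 3311 to 2468 ± 617 CPM, 46.0% of the unlesioned level. For tgfbi edgeR estimated the log2 difference at -1.12 ± 0.45 (SE), and p was adjusted to 0.368, or to 0.129 in DESeq2. Without unlesioned 4 it was -1.44 ± 0.29 (adjusted p = 0.225 in edgeR), and without unlesioned 3, the highest library, it was -0.69 ± 0.41 (adjusted p = 0.555). By replicate number the log2 ratios were -1.40, -1.20, -1.51 and 0.61, so the fourth pair went the other way. In libraries 1 and 2 alone the log2 fold change was -1.30 ± 0.15 (adjusted p = 0.0814 in edgeR), and in libraries 3 and 4 alone -0.92 ± 0.84 (adjusted p = 1.00). Each of these fits holds only the named libraries of both groups, by a split seen in the data and not a labelled batch.

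**Figure D2:**
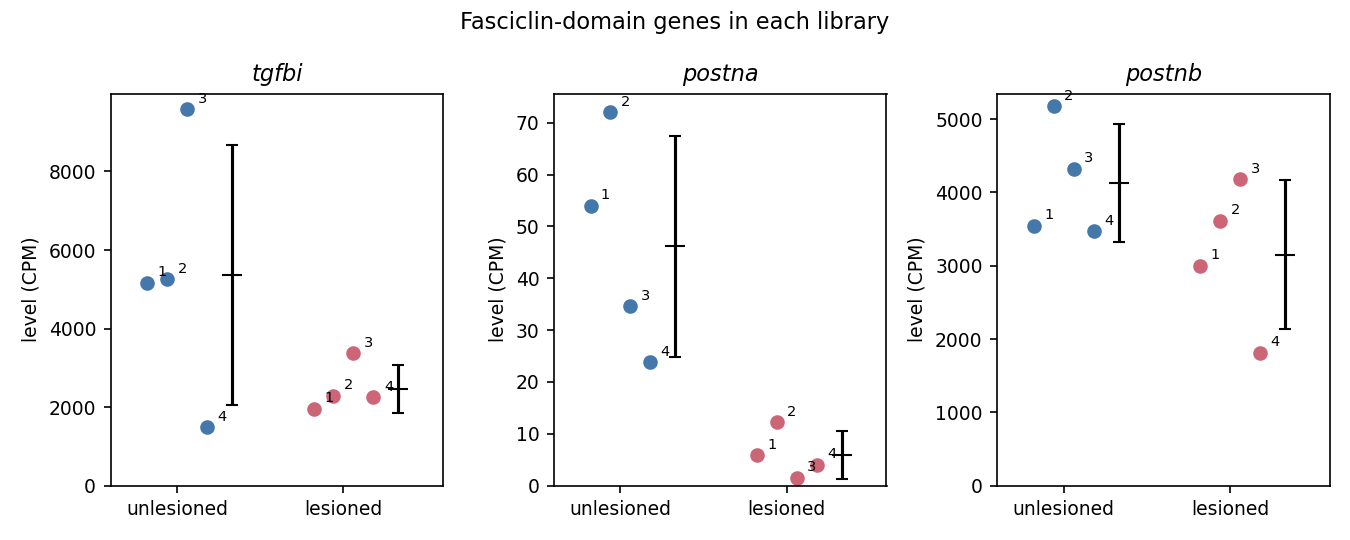
Level of tgfbi, postna and postnb in CPM (vertical axes start at 0 and differ between panels) in each library, numbered by replicate, with the mean and SD of 4 libraries per group beside the points. The lesioned points of postna, at most 12.3 CPM, lie below all unlesioned ones; those of tgfbi lie between unlesioned 4 and the other 3 unlesioned libraries; those of postnb overlap the unlesioned ones.

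**Figure D3:**
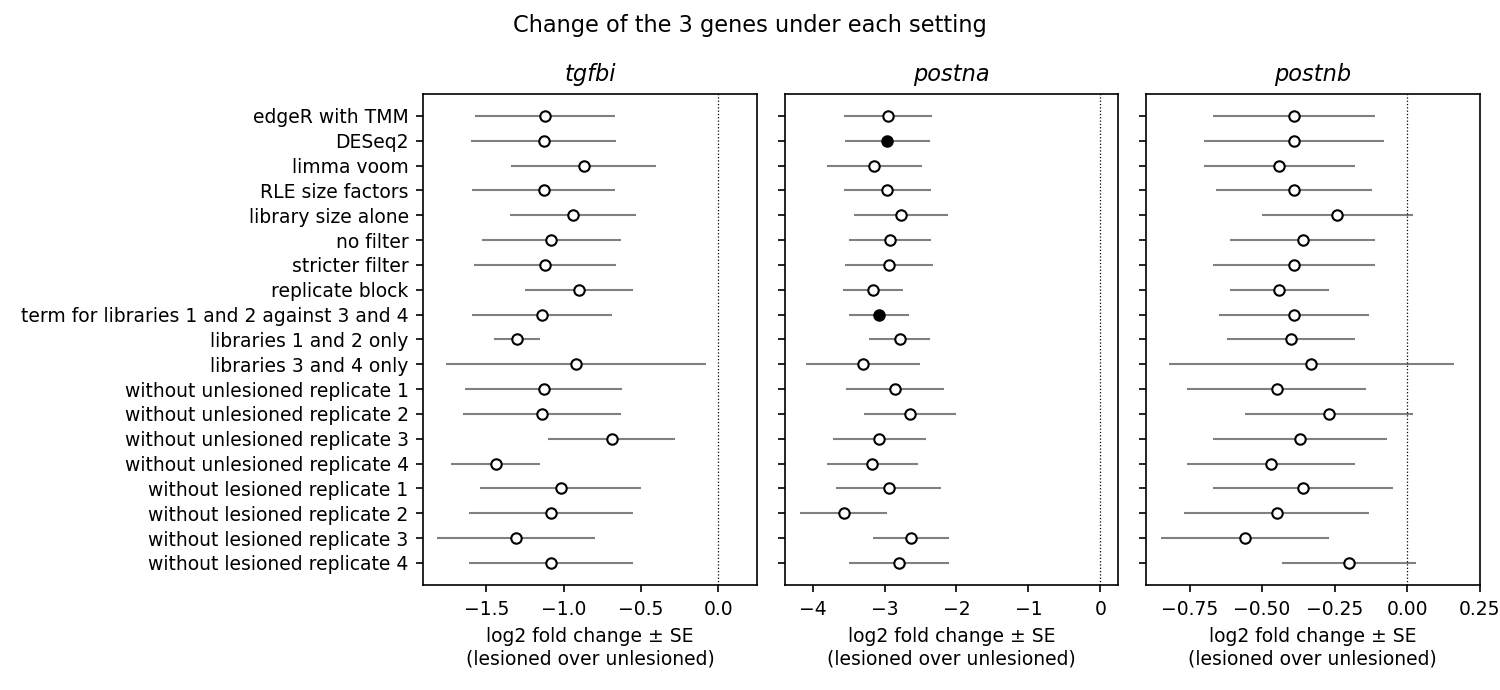
Log2 fold change (lesioned over unlesioned, bars are SE) of the 3 genes in the edgeR fit of the text (top row) and in 18 alternatives, with filled points where the adjusted p was under 0.05; the horizontal axes differ between panels and the dotted line marks 0. All points are negative, and the 2 filled ones belong to postna.

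The spread between libraries also differed among the genes. The within-group SD of log2 CPM was 0.83 for tgfbi, 1.00 for postna and 0.42 for postnb. Among the 500 genes nearest in mean level over all 8 libraries, a smaller SD was held by 89.0% for tgfbi, 85.4% for postna and 56.4% for postnb. So tgfbi and postna were among the more variable genes of that mean level, and postnb near the middle. For postna this level lies between those of its groups (46.2 and 5.98 CPM), so its comparison genes match neither group closely. In the unlesioned group the highest library held 6.46 times the lowest for tgfbi, 3.03 times for postna and 1.49 times for postnb. In the lesioned group these ratios were 1.72, 8.03 and 2.30, so tgfbi was the most even of the 3 in the lesioned libraries and the least even in the unlesioned ones.

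The balance between the 2 periostin genes differed between the groups. Per exon length, postnb exceeded postna 44.8, 49.1, 85.2 and 99.5 times in unlesioned 1 to 4. In lesioned 1 to 4 it exceeded postna 344, 200.0, 1858 and 305 times. Every lesioned ratio was above every unlesioned one, and no test was made of this ratio. It restates the levels of postna and postnb given above, and in lesioned 3 it rests on 34 postna counts. Per length, tgfbi stood at 2.81, 1.95, 4.26 and 0.823 times postnb in the unlesioned libraries 1 to 4. The lesioned libraries held ratios of 1.26, 1.22, 1.55 and 2.39, and the groups overlapped.

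Markers of other cell types also differed in level between the libraries. The 9 tendon markers, of which all 9 were tested, summed to 2309.9, 2940.3, 3044 and 1198 CPM in the unlesioned libraries 1 to 4. Their sums in the lesioned libraries were 1161, 1549, 1071 and 604 CPM. The unlesioned libraries had the same order for this sum as for tgfbi, with unlesioned 3 highest and unlesioned 4 lowest. The lesioned libraries did not: tgfbi was highest in lesioned 3 and lowest in lesioned 1, and the tendon sum was highest in lesioned 2 and lowest in lesioned 4. The unlesioned match was picked out after the values were seen. The largest part of the tendon sum, fmoda, was highest in unlesioned 2 (1584 CPM) and not in unlesioned 3 (1416 CPM). The sum of the mural markers had the reverse of the tgfbi order in the unlesioned libraries. The chondrocyte sum, at 1226, 1695, 1720 and 413 CPM in unlesioned 1 to 4, had the unlesioned order of tgfbi too. Most of that sum was matn4 alone, at 1006, 1398, 1538 and 401 CPM. The marker col2a1a, named after its values were seen, had another order (13.9, 19.9, 11.2 and 0.893 CPM). In the lesioned group the chondrocyte sum was highest in lesioned 3 (1293 CPM) and lowest in lesioned 4 (349 CPM). The tendon list had a median log2 fold change of -0.93 against -0.04 over all genes tested, and edgeR called 0 of its genes. At an unadjusted p under 0.05 in edgeR 1 was higher and 2 lower, where 6.07% and 5.48% of all genes were, or 2 and 3 with the replicate block (7.32% and 7.12% of all genes). The higher one without the block was scxa, a transcription factor gene of tendon progenitors, at 32.2 ± 8.21 and 56.5 ± 17.9 CPM. Its groups did not overlap, as was so for 5.32% of all genes in that direction. The lower ones were fmoda and tnmd, the latter at 642 ± 404 and 187 ± 69.8 CPM (log2 fold change -1.78, adjusted p = 0.211 in edgeR). Both scxa and tnmd are named here after their values were seen. The most abundant gene of the list per length, fmoda, encodes a fibromodulin and had 1309 ± 327 and 688 ± 280.2 CPM (log2 fold change -0.93, adjusted p = 0.309 in edgeR).

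The 10 mural markers summed to between 7559 and 22704 CPM in the unlesioned and between 4223 and 7508 CPM in the lesioned libraries. These sums did not overlap, but unlesioned 3 (7559 CPM) and lesioned 1 (7508 CPM) nearly met. Taken singly, 3 of the 10 genes were lower without overlap, as were 3.91% of all genes. Their median log2 fold change was -0.97, and edgeR called 0. At an unadjusted p under 0.05 in edgeR 0 were higher and 5 lower, where 6.07% and 5.48% of all genes were. With the replicate block these counts were 0 and 6 (7.32% and 7.12% of all genes). The most abundant per length, the smooth muscle actin acta2, had 9028 ± 4234 and 3623 ± 1131 CPM (log2 fold change -1.32, adjusted p = 0.212 in edgeR), and its groups overlapped. Unlesioned 4, where tgfbi was lowest, had the highest mural sum of all 8 libraries and the lowest fibroblast sum. Its epidermis (4887 CPM) and neutrophil (197 CPM) sums were also the highest of the 8. Lesioned 4, where postnb was lowest, had the highest fin mesenchyme sum (14336 CPM) and the lowest tendon (604 CPM) and mural (4223 CPM) sums. The fibroblast list had a median of -0.20, and edgeR called 0. Of its 11 genes 0 were higher and 1 lower at an unadjusted p under 0.05 in edgeR (6.07% and 5.48% of all genes). With the replicate block 0 were higher and 2 lower (7.32% and 7.12% of all genes). The muscle markers summed to between 287 and 1048 CPM in the unlesioned and between 182 and 4063 CPM in the lesioned libraries, and the groups overlapped. Lesioned 1 to 4 held 765, 182, 4063 and 2344 CPM, so the high sums were those of lesioned 3 and 4. The log2 fold change was above 0 for 7 of 7 muscle markers tested, against 7514 of the 15759 genes tested. Its median was 1.74, or 0.51 with the replicate block. In edgeR 1 of the 7, actc1b, had an unadjusted p under 0.05 (388 ± 253 and 1327 ± 1172 CPM, adjusted p = 0.429), and 0 did with the block. The part of the marker lists of any cell type in the levels of tgfbi, postna and postnb was not tested.

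**Figure D4:**
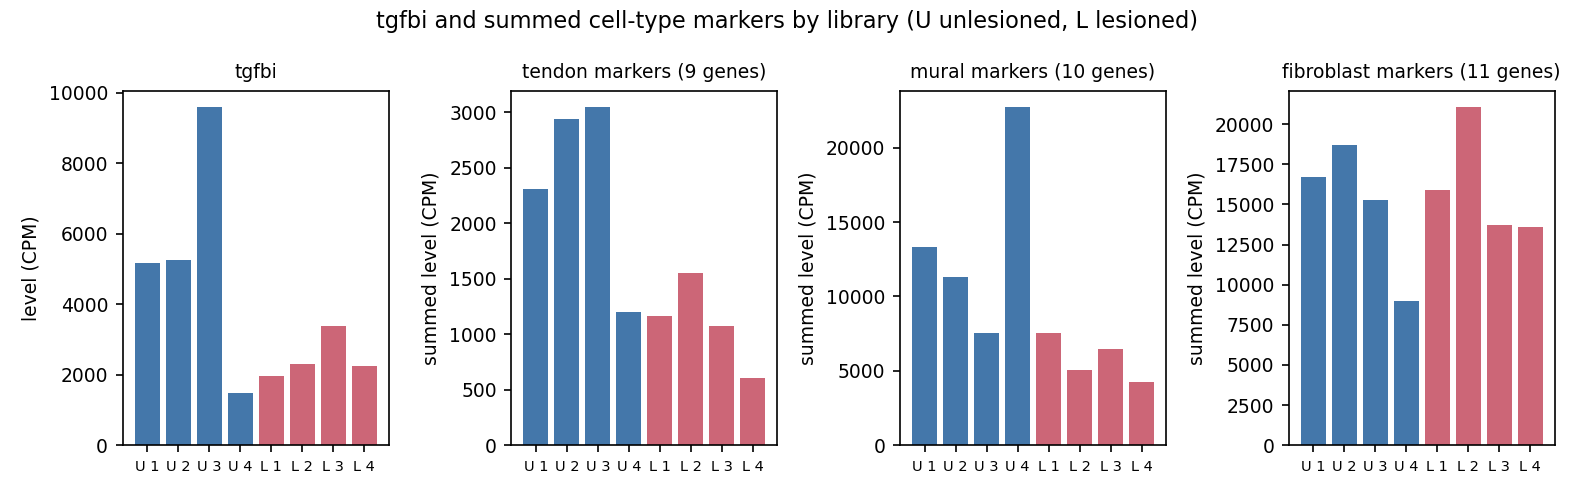
Level of tgfbi and the summed levels of tendon, mural and fibroblast markers in CPM, 1 bar per library (U unlesioned, L lesioned), with axes that start at 0. Unlesioned 4 has the lowest bar for tgfbi (1483 CPM) and the highest for the mural markers (22704 CPM), and unlesioned 3 the highest for tgfbi and for the tendon markers.

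The genes of the TGF-beta pathway, which induces both proteins in mammalian cells, showed no call in edgeR. Of 6 ligands and latency proteins tested (11 listed), 0 were called in either direction and 0 had an unadjusted p under 0.05 in edgeR, and DESeq2 and limma voom called 0. With the replicate block 1 was higher (nrros) and 1 lower (lrrc32, named after its values were seen) at an unadjusted p under 0.05. Over all genes 7.32% were higher and 7.12% lower with the block. Their median log2 fold change was -0.36. The most abundant ligand, tgfb1a, had 140.0 ± 43.1 and 157 ± 38.7 CPM, and tgfb3 had 79.0 ± 13.8 and 61.0 ± 20.1 CPM. The latent TGF-beta binding protein ltbp1 had 62.2 ± 16.8 and 49.2 ± 7.66 CPM. The milieu receptor gene nrros, which tethers latent TGF-beta on macrophages in mammals, had at most 8.82 CPM. DESeq2 gave nrros no adjusted p and so could not call it.

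Of 12 TGF-beta receptors and Smads tested (13 listed), edgeR called 0, with 0 at an unadjusted p under 0.05, and DESeq2 and limma voom called 0. With the replicate block 1 of the 12, smad3a, was lower at an unadjusted p of 0.0163 (adjusted p = 0.234 in edgeR). Of all genes 7.12% were lower with the block at an unadjusted p under 0.05. The median was 0.15. The most abundant per length, the signal transducer smad3a, had 239.5 ± 101 and 159 ± 103 CPM (log2 fold change -0.59, adjusted p = 0.693 in edgeR). The receptor gene tgfbr2b had 64.2 ± 5.69 and 52.1 ± 17.4 CPM, and its paralog tgfbr2a 5.50 ± 3.83 and 10.9 ± 6.89 CPM. DESeq2 gave tgfbr2a no adjusted p and so could not call it.

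Among 15 response genes known from TGF-beta-treated cells, all tested, edgeR, DESeq2 and limma voom called 0. In edgeR 2 were lower and 0 higher at an unadjusted p under 0.05, where 5.48% and 6.07% of all genes were. With the replicate block 2 were lower and 1 higher (7.12% and 7.32% of all genes). The median was -0.42, and 12 of 15 had a negative log2 fold change, against 8245 of the 15759 genes tested. The 2 lower genes without the block were ccn2a, a connective tissue growth factor (376 ± 148 and 187 ± 87.3 CPM, log2 fold change -1.01, adjusted p = 0.354 in edgeR), and id1, an inhibitor of differentiation that BMP signals also induce (266 ± 67.6 and 182 ± 20.1 CPM, -0.55, adjusted p = 0.404). The corepressor gene skilb had 28.1 ± 13.7 and 15.7 ± 4.26 CPM.

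The list of matrix partners holds collagens, fibronectins, tenascins and other proteins that bind or process periostin or TGF-beta-induced protein in mammals. Of 23 tested (29 listed), edgeR and limma voom called 0 and DESeq2 called 3 higher and 0 lower, where it called 1.75% and 1.54% of all genes. In edgeR 4 were higher and 1 lower at an unadjusted p under 0.05, where 6.07% and 5.48% of all genes were. With the replicate block 4 were higher and 3 lower (7.32% and 7.12% of all genes). The median was 0.09. The fibronectin gene fn1a had 175, 197, 213 and 95.8 CPM in the unlesioned libraries 1 to 4. In the lesioned libraries it had 578, 589, 447 and 711 CPM, each above every unlesioned value, as was so for 5.32% of all genes. The adjusted p of fn1a was 0.112 in edgeR and 7.91e-06 in DESeq2, at a log2 fold change of 1.77 ± 0.28. Its paralog fn1b, named after its values were seen, had 469 ± 208 and 460.1 ± 104 CPM (-0.03, adjusted p = 0.99 in edgeR). The collagen XII genes col12a1a (369.9 ± 119 and 746 ± 108 CPM, 1.01) and col12a1b (84.0 ± 21.4 and 185 ± 21.3 CPM, 1.14) were the other 2 called by DESeq2, with adjusted p-values of 0.187 and 0.153 in edgeR. The most abundant partner per length, col1a1a of collagen I, had 5401 ± 2123 and 6568 ± 2321 CPM (0.28, adjusted p = 0.852 in edgeR).

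Integrins are the surface receptors of both proteins. Of 15 tested (18 listed), edgeR and limma voom called 0, and DESeq2 called 1 higher and 0 lower. Over all genes DESeq2 called 1.75% higher. In edgeR 2 were higher and 0 lower at an unadjusted p under 0.05, where 6.07% and 5.48% of all genes were, and the median was 0.08. With the replicate block 1 was higher (itga10) and 1 lower (itgb6), where 7.32% and 7.12% of all genes were, and the median was -0.12. The most abundant per length, the beta chain gene itgb1a, had 132 ± 52.0 and 166 ± 39.9 CPM. The gene called by DESeq2, itga10, an alpha chain of a collagen receptor, had 5.53 ± 2.96 and 22.2 ± 15.8 CPM, at a log2 fold change of 2.01 ± 0.57 and an adjusted p of 0.220 in edgeR and 0.0182 in DESeq2. The alpha chain gene itga8 had 35.3 ± 13.9 and 59.3 ± 16.0 CPM. The beta chain gene itgb6, typical of epithelia, had 7.68 ± 7.31 and 2.67 ± 2.62 CPM, and DESeq2 gave it no adjusted p.

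The remaining genes with fasciclin domains on the lists, the scavenger receptors stab1 and stab2 of sinusoidal endothelium, were scarce. The level of stab1 was 4.18 ± 3.53 and 2.04 ± 1.01 CPM, and that of stab2 7.02 ± 9.22 and 5.25 ± 3.88 CPM. Neither was called by edgeR or limma voom, and 0 of the 2 had an unadjusted p under 0.05 in edgeR. DESeq2 gave neither gene an adjusted p and so could not call them.

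**Figure D5:**
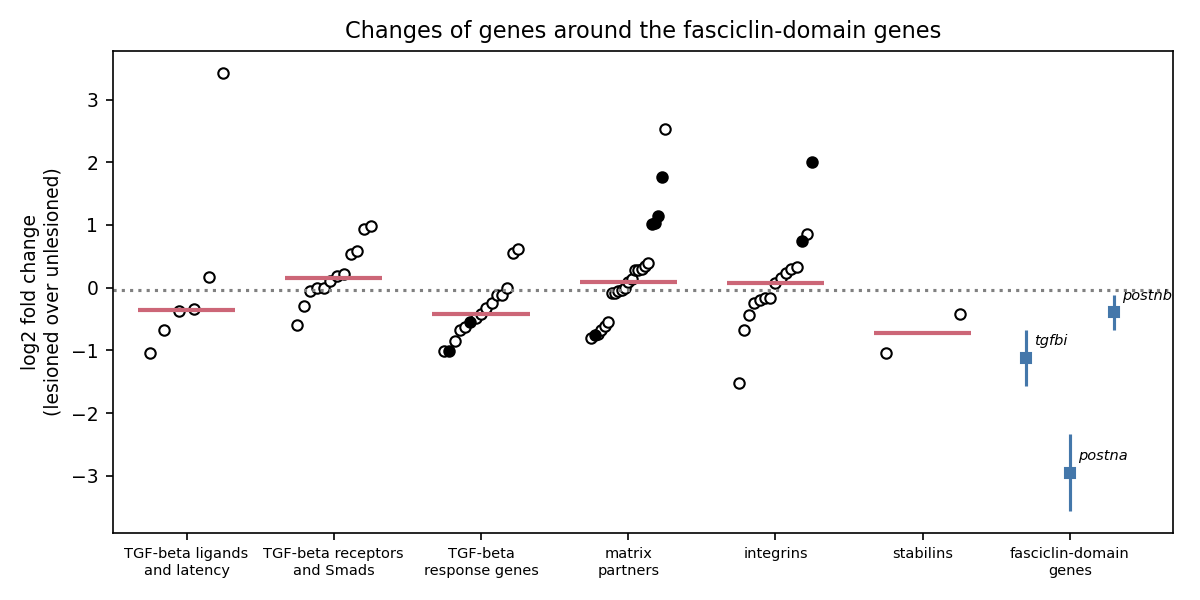
Log2 fold change (lesioned over unlesioned) of each tested gene of 6 lists, with the list median as a red bar, filled points at an unadjusted p under 0.05 in edgeR, and the 3 fasciclin-domain genes as blue squares with SE; the dotted line is the median of all genes, -0.04. The list medians lie between -0.73 and 0.15, and postna, at -2.95, lies below every gene of the 6 lists.

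The genes whose level over the 8 libraries was most like that of each member were taken from the 8061 others with a mean of at least 10 CPM, by Pearson's r of log2 CPM. For postna these were zgc:91944 (r = 0.980), colec11, which encodes a collectin of the lectin pathway of complement (0.967), and ifi30a, of a family of lysosomal thiol reductases (0.955). The level of colec11 was 22.7 ± 9.10 and 1.55 ± 1.84 CPM and that of zgc:91944 27.2 ± 8.69 and 9.45 ± 4.66 CPM, and edgeR called neither (adjusted p = 0.216 and 0.224), while DESeq2 called both (0.00289 and 0.0244). With each library taken as its deviation from the group mean, the 3 values of r were 0.946, 0.878 and 0.805.

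For tgfbi the 3 genes were ctdspl3, of a phosphatase family (r = 0.950), socs3a, a feedback inhibitor of cytokine signals (0.938), and fpr1, a formyl peptide receptor gene (0.937). Their r of deviations from the group means was 0.933, 0.921 and 0.913. The level of socs3a was 658 ± 171 and 515 ± 123 CPM. For postnb they were s1pr5a, a receptor gene for sphingosine phosphate (r = 0.973), si:ch211-222k6.3 (0.971) and sfrp5, a secreted Wnt antagonist (0.960). Without the 2 libraries farthest from the median of postnb, lesioned 4 and unlesioned 2, these r were 0.798, 0.828 and 0.737. The 3 sets share no gene. The values of r are the highest of many and describe 8 libraries with the same labelled protocol, and no test was made of them. Libraries 1 and 2 differed from 3 and 4 in their spike-in counts, given under the processing.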

How the data were processed

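RNA of 8 libraries (4 lesioned, 4 unlesioned) was made into full-length cDNA by the SMARTSeq 2 protocol, per the labels. The authors deposited raw read counts per gene, not normalized. The submitters' processing notes list bcl2fastq 2.19.1, the aligner GSNAP and the read counter featureCounts 1.6.2. Version 1.6.3 of the counter stands in the file header, with Ensembl 92 on GRCz11, strand setting 0 and minimum mapping quality 1. The 92 spike-in entries were left out. They held 2, 0, 158 and 87 counts in unlesioned 1 to 4, and 3, 2, 86 and 64 counts in lesioned 1 to 4.

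Symbols came from a reference table. Symbols in capitals (10863 assigned, tgfbi, postna and postnb among them) were turned into zebrafish symbols from 15 neighbouring genes on each side in RefSeq GRCz12tu, and 22, 26 and 21 neighbours matched for tgfbi, postna and postnb. In a check on 3584 paralogs of known symbol, 2431 were returned, 7 went wrong and 1146 were not resolved. Where both exist, a paralog can thus be missing from a list.

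The fit was edgeR 4.0.16 in R 4.3.3 (TMM, filterByExpr, robust quasi-likelihood F-test, two-sided, Benjamini-Hochberg over all 15759 genes tested), and it was tested on simulated data. There it called 1 of 50 genes given a log2 change of 1 and 25 of 50 given 2. It called 41 of 50 given 3 and 46 of 50 given 4. A gene that was not called can therefore still differ. In the edgeR fits SE is the size of the log2 fold change over the root of F, and DESeq2 and limma voom give their own. DESeq2 1.42.0, limma voom 3.58.1, other scalings, filters, a replicate block, a term for libraries 1 and 2 against 3 and 4, and leaving out each library were alternatives. Depth was 19552807 to 25358885 counts per library.

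The members and lists were chosen with earlier results of these data known. Named are the 3 members, per list the 3 genes with the lowest p and the most abundant per length (for marker lists the latter alone), and per member the 3 most like it. Of the genes this rule names, 1 is not reported here. Labels give the numbers but no batch. The 4 same-numbered pairs correlated at 0.192, 0.182, 0.232 and 0.154 in their deviations from the group means across genes, each over the limit of 0.1. Unlesioned 2 with lesioned 1 (0.199) and unlesioned 1 with lesioned 2 (0.182) were over it too. The rule thus does not settle the pairing by number within libraries 1 and 2. Unlesioned 3 with lesioned 4 (0.047) and unlesioned 4 with lesioned 3 (0.023) were under it. Libraries 1 and 2 against 3 and 4 is a split seen in the data, the spike-in counts included, and not a labelled batch.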

Additional observations from a re-analysis of the deposited data

Results flagged for a closer look

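In a group of 4 libraries, a value was picked out where its gap to the nearest other library was a larger part of the group's range than Dixon's critical value (95%) allows, which chance does for about 1 group in 20. Of 90 groups examined 4 met this, about as many as that share gives, and no value of tgfbi, postna or postnb was among them. Of the genes around them, stab2 in unlesioned 3 stood at 20.7 CPM, the other unlesioned libraries between 0.995 and 4.28 CPM. The transducer smad3a in lesioned 3 stood at 313 CPM, the other lesioned libraries between 90.0 and 117 CPM. The latency gene nrros had 1.41 CPM in unlesioned 1 and was at 0 in the other unlesioned libraries. The postnb-like gene sfrp5 had 51.8 CPM in unlesioned 2, the others between 21.7 and 26.5 CPM.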

How the results depend on the processing

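The log2 fold change kept its sign for tgfbi, postna and postnb under all 18 alternatives. No alternative called tgfbi or postnb. DESeq2 (-2.96) and the term for libraries 1 and 2 against 3 and 4 (-3.08) called postna, and the other 16 did not. With the replicate block the log2 fold changes were -0.90, -3.16 and -0.44 for tgfbi, postna and postnb, and no call of these genes or of the lists at an adjusted p under 0.05 changed; at an unadjusted p under 0.05 postnb joined the other 2. Leaving out 1 library gave -1.44 to -0.69 for tgfbi, -3.57 to -2.63 for postna and -0.56 to -0.20 for postnb.

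Over all genes, calls higher and lower numbered 275 and 242 with DESeq2, 5 and 1 with no filter, 7 and 7 with the term for libraries 1 and 2 against 3 and 4, 5 and 1 in libraries 1 and 2 alone, and 0 higher in libraries 3 and 4 alone. Leaving out 1 library gave 3 to 7 higher and 0 to 1 lower, with the most without unlesioned 3. DESeq2 called 3 matrix partners and 1 integrin higher, and with no filter 1 partner was called. The sign of genes near 0 turned for tgfb1a (-0.08), ltbp1 (0.09) and tgfbr2b (0.04) in libraries 1 and 2 alone. It turned for stab2 with the term for libraries 1 and 2 against 3 and 4 (0.22) and in libraries 1 and 2 alone (1.95). Leaving out 1 library gave -0.01 to 0.32 for tgfb1a and -0.78 to 1.09 for stab2. The cause was not tested. Library size as the only scaling moved the median of all genes from -0.04 to 0.12, and changes here are relative to TMM. Levels per coding length were not run, since no protein lengths were used here.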
